A study of Saccharomyces cerevisiae with 22 samples.

Results

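This is a comparison of polyA-selected RNA with total RNA of the same 10 strains of budding yeast (Saccharomyces cerevisiae), with both libraries of a strain taken as a pair. All strains are haploid with the genotype MATa his3d1 lyp1d0 can1d::STE2pr-spHIS5, and differ in how many tandem copies of the rRNA genes, the rDNA repeats, they carry on chromosome XII. The polyA group holds 10 libraries selected for polyadenylated RNA, and the total RNA group holds 10 libraries made without that selection. Each group has 1 library of each strain. The strains are CGY24.17 with 72 repeats, CGY29.01 with 84, CGY20.46 with 118, CGY24.16 with 129, CGY20.50 with 147, CGY24.09 with 156, CGY28.50 with 197, CGY28.49 with 208, CGY28.52 with 224 and CGY20.55 with 237. These are 20 of the 22 samples of the series; the other 2, polyA libraries of low recovery per the labels, were not used. Each strain is 1 isolate, so the error of every value is the spread between strains.

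Selection was not the only difference between the groups. Per the labels' protocols, polyA libraries started from 250 ng of RNA and total RNA libraries from 10 ng, and total RNA was fragmented for 20 minutes against a standard of 15. The deposited values also differ, being TPM, transcript abundances scaled to a fixed sum, for polyA and scaled read counts for total RNA. Selection, input, fragmentation and quantification cannot be told apart as sources of any difference below.

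Nuclear messenger RNA of yeast ends in a poly(A) tail, which oligo(dT) beads bind, while rRNA, transfer RNA and most small stable RNAs carry none. Mitochondrial messages of yeast are a known exception among mRNAs. They are transcribed inside the organelle, carry no stable poly(A) tail, and most end at a short conserved word downstream of the stop codon, the dodecamer. Total RNA gives a view of the same strains that does not depend on the tail.

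Both assays list 5818 features in common. After 3 frames that overlap the rDNA and 2 without an annotated coding length were set aside, 5813 rows were kept, of which 5262 have a gene symbol. Total RNA values were divided by coding length in kilobases, and both assays were rescaled to 1000000 over the kept rows, so that a level below is a share per coding length out of that sum. Total RNA libraries held 6495626 to 7934346 reads, most of them from the rDNA, and 307924 to 378370 reads in the kept rows. A single read at a frame of 1 kb was worth a level of 2.74 to 3.32, and the median tested row had 15.7 reads per library. The polyA files keep no depth, so no count test could compare the assays. Differences are log2(level + 1) in polyA minus total RNA, which understates the change of low genes. Limma's test against a 2-fold difference was applied to 5153 rows with a mean level of at least 5, and a row was called at a Benjamini-Hochberg adjusted p of 0.05. The rows with the highest means in polyA were YDR524C-B, TDH3 and RPL41A, and in total RNA TDH3, CCW12 and PDC1. TDH3, the main glyceraldehyde-3-phosphate dehydrogenase, had medians of 20275 in polyA and 30654 in total RNA, a difference of -0.58 that was not called. Across genes, log2 levels of the assays correlated with Pearson's r of 0.81 to 0.83 within strains. MFA1 and MFA2, the a-factor genes, had median levels of 5776 and 8099 in polyA and of 3310 and 4211 in total RNA, while MF(ALPHA)1 and MF(ALPHA)2, the alpha-factor genes, were at most 1.28 in polyA and had 1 and 0 reads in total RNA over the 10 libraries. SAG1, the alpha-agglutinin, stood at 10.2 to 12.3 in polyA and 14.0 to 30.8 in total RNA, and STE3, the a-factor receptor, at medians of 3.64 and 3.91 in the same order.

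The end word was read from the genome, to show the sequence known to close most of the mitochondrial messages described next. Whether it bears on any difference was not tested. A search of the 600 bases after the stop codon of the 8 mitochondrial protein genes, with no preset motif, found 1 word of 12 bases that 6 of them share, and no other word of that length was shared by as many. The word is AATAATATTCTT, on the coding strand. It begins between 63 bases (COX2) and 580 bases (VAR1) after the stop. The sites are shown with 9 bases on either side, the word in capitals, from the RefSeq sequence of the S288C mitochondrial genome.
COX1: taatataatAATAATATTCTTataaaaata
COX2: aataattatAATAATATTCTTaaatataat
COX3: tattattatAATAATATTCTTacaaatata
COB: taatactttAATAATATTCTTaaaaataat
ATP6: cccccttttAATAATATTCTTttatctaat
VAR1: aataaataaAATAATATTCTTaatttttat
The sites lie on the plus strand of chrMT:26761-26790 for COX1, chrMT:74567-74596 for COX2, chrMT:80114-80143 for COX3, chrMT:43736-43765 for COB, chrMT:29344-29373 for ATP6 and chrMT:50668-50697 for VAR1. The windows after ATP8 and OLI1 do not hold these letters. The mitochondrial genome of 85779 bases holds 9 copies on this strand and 2 on the other, and 5 of 5794 nuclear windows of the same length and position (0.0863%) hold the word.

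Mitochondrial messages were higher in total RNA in every strain, by more than 1 order of magnitude in sum. Over the 19 mitochondrially encoded rows, the summed share of all levels was 0.00478% ± 0.00321 in polyA and 0.117% ± 0.0239 in total RNA (SD, n = 10 each). The polyA share was lower in 10 of 10 strains, and the mean log2 ratio of polyA over total RNA was -4.79 ± 0.78 (SD), a 27.7-fold excess in total RNA. An exact sign-flip permutation test over the 10 pairs, two-sided, gave p = 0.00195, the smallest that 10 pairs allow. The counts behind these shares were 303 to 684 reads per total RNA library. Over the 10 libraries COX1 held 835 reads, and AI1 and AI2, frames that begin at the same exon, held 1359 and 1545. The sum rests in large part on these 3 overlapping rows and may count shared reads more than once.

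Of the 8 protein genes, 6 were tested and all 6 were called higher in total RNA, where 525 of 5153 tested rows (10.2%) were called in that direction. COX1, the catalytic subunit of cytochrome c oxidase, had a lowest, median and highest level of 1.46, 2.71 and 12.8 in polyA, and of 125, 132 and 211 in total RNA. The groups did not overlap, and the difference was -5.10 ± 0.19 (SE; limma adjusted p = 2.71e-09). COX2, its copper-binding subunit, was listed at 0 in 8 of 10 polyA libraries with a highest level of 1.48, and stood at 11.9, 41.9 and 66.3 in total RNA. COX3, the remaining mitochondrial subunit of the complex, had at most 1.65 in polyA and 40.4, 69.0 and 122 in total RNA. COB, cytochrome b of the bc1 complex, reached 5.23 in polyA, with a median of 0.0280, and stood at 33.1, 61.8 and 98.9 in total RNA. These differences were -5.00 ± 0.28 for COX2, -5.92 ± 0.19 for COX3 and -5.55 ± 0.30 for COB. All 3 were lower in polyA in 10 of 10 strains.

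Among the 6 tested protein genes, the 2 of the ATP synthase had the smallest gaps per coding length. With the trend of the differences on coding length removed, that order did not hold for OLI1, which stood at -4.89, against -4.61 for COX1 and -4.48 for ATP6. ATP6, a membrane subunit, had a median of 0.159 and a highest level of 3.78 in polyA, and stood at 7.81, 34.2 and 53.5 in total RNA on 2 to 15 reads per library, a difference of -4.39 ± 0.38. OLI1, the proteolipid ring subunit, was the mitochondrial gene most visible in polyA. Its levels were 17.4, 20.0 and 69.7 in polyA and 193, 379 and 566 in total RNA, a difference of -3.75 ± 0.25 (limma adjusted p = 1.44e-06). The downstream windows of OLI1 and ATP8 lack the shared word, and whether this bears on their levels was not tested. ATP8 had 1 read over the 10 total RNA libraries and was listed at 0 in polyA, and VAR1, a protein of the mitochondrial ribosome, had levels of 0.454 to 1.31 in polyA with 6 reads in total RNA. Neither passed the filter, so they enter no count.

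Introns of COX1, COB and the large mitochondrial rRNA hold reading frames for maturases and endonucleases, proteins that splice or copy the introns. Of 10 such frames 4 passed the filter, and all 4 were called higher in total RNA, beside 10.2% of all tested rows. The lowest, median and highest levels of AI1 were 0.139, 0.996 and 7.12 in polyA and 73.2, 154 and 216 in total RNA. AI2 stood at 0.410, 0.913 and 6.50 in polyA and at 69.4, 177 and 224 in total RNA, the largest gap among the 10 tested mitochondrial rows per coding length at -6.19 ± 0.22. With the length trend removed COX3 had the largest, at -5.98, and AI2 stood at -5.24. AI4 had a difference of -4.25 ± 0.16 and AI5_BETA of -2.83 ± 0.21. The frames of AI1, AI2 and AI4 begin at the first exon of COX1 (chrMT:13818), so reads of shared exons may have been placed at any of these rows and their levels are uncertain as values of single genes. The other 6 frames were low: AI3, AI5_ALPHA, BI2, BI3 and BI4 had 3 to 31 reads over the 10 total RNA libraries. SCEI, an endonuclease read from the intron of the large mitochondrial rRNA, was the exception in direction, at 2.34 to 4.50 in polyA with 0 reads in total RNA.

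**Figure D1:**
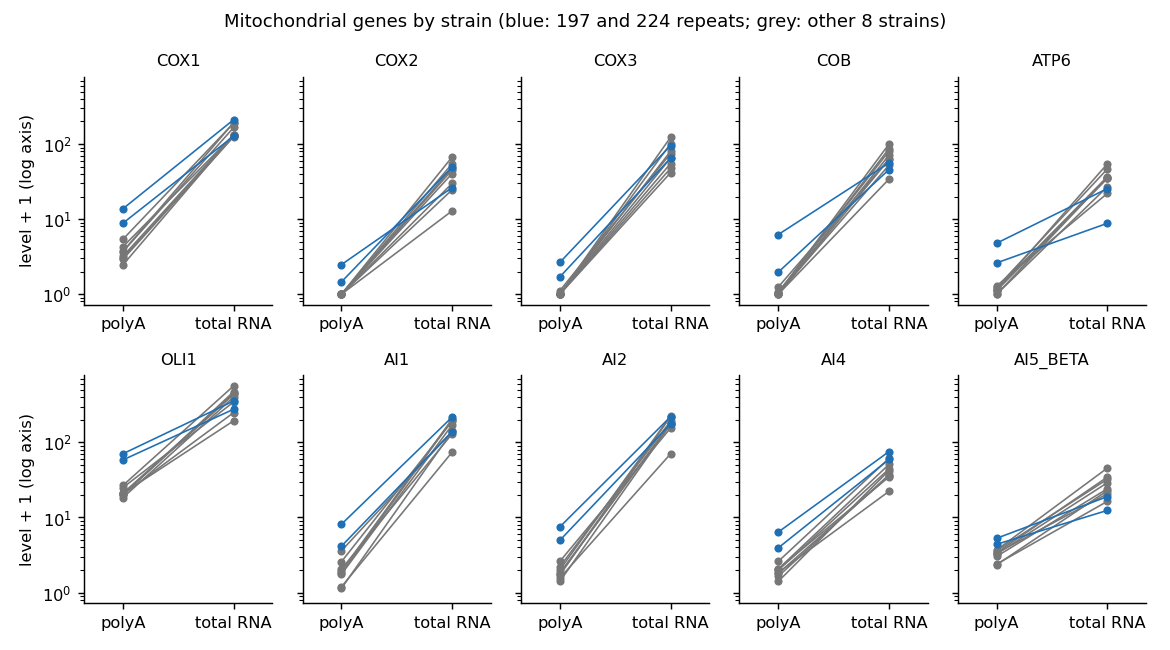
Levels of the 10 tested mitochondrial rows in polyA (left) and total RNA (right) of each panel, as level + 1 on a log axis, with a line for each of 10 strains. All lines climb toward total RNA; the strains with 197 and 224 repeats (blue) lie highest in polyA in every panel.

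The strains with 197 and 224 repeats held more mitochondrial RNA in polyA than the others. Their summed polyA levels were 113 and 103, while the other 8 strains lay between 28.2 and 38.8. OLI1 stood at 57.5 and 69.7 in these 2 libraries and at 17.4 to 25.8 in the other polyA libraries. COX1 stood at 12.8 and 7.85 in them and at 1.46 to 4.41 in the others. Both are CGY28 strains by name, as is the strain with 208 repeats, whose summed polyA level was 28.7. In total RNA the same strains lay inside the range of the others, with summed levels of 1241 and 1049 in a range of 720 to 1522. Without these strains the mean log2 ratio was -5.14 ± 0.31 (SD, n = 8), and the exact permutation p was 0.00781, the smallest that 8 pairs allow.

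The deleted loci of the genotype gave a check on each assay. LYP1, the lysine permease gene, was listed at 0 in all polyA libraries and had 6 reads in total RNA over the 10 libraries. CAN1, the arginine permease gene replaced by the STE2pr-spHIS5 cassette, was also listed at 0 in all 10 polyA libraries, yet total RNA held 24 to 36 reads per library (299 in all), at levels of 40.6 to 61.2. It was called higher in total RNA and was the single gene with a level of at least 10 in all libraries of total RNA and below 1 in all of polyA. Without the strain with 197 repeats COB, COX2 and COX3 also met this pair of levels, making 4 genes. The files do not give the extent of the counted row. HIS3, whose allele his3d1 removes part of the gene, was at a median of 90.9 in polyA and 108 in total RNA, with a difference of -0.34 ± 0.11 that was not called.

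Long frames were higher in total RNA and short frames higher in polyA. Across 5143 tested nuclear genes, Spearman's rho between the difference and coding length was -0.79, a description over genes that are not independent. Within strains the slope on log2 length lay between -0.75 and -0.69 log2 units per doubling. With the tested genes in 10 bins of about equal size, the shortest ran from 78 to 441 bases and had a median difference of 0.91, with 87 of 520 genes called higher in polyA and 6 higher in total RNA. The longest bin ran from 2871 to 14733 bases and had a median of -1.41, with 0 of 516 genes called higher in polyA and 314 higher in total RNA. The medians of the bins between fell in order, and the median crossed 0 between 651 and 1029 bases. Over all tested genes the median was -0.28, with 118 (2.29%) called higher in polyA and 525 (10.2%) higher in total RNA. Of the 118, 74 had 30 or fewer reads in total RNA over the 10 libraries, against 0 of the 525. The direction was the same in all strains for 104 of the 118 and for all 525. With the differences centred on their median, the calls were 214 higher in polyA and 252 higher in total RNA, and with quantile normalisation 166 and 355 in the same order. With the trend on length removed by a lowess fit, 54 (1.05%) were called higher in polyA and 60 (1.16%) higher in total RNA. The fit used all tested rows, so shifts of lists chosen by frame length, given below, follow in part from the fit itself. Of the 54, 34 are also named in rows of total RNA that join neighbouring frames, described below, against 1 of the 60.

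**Figure D2:**
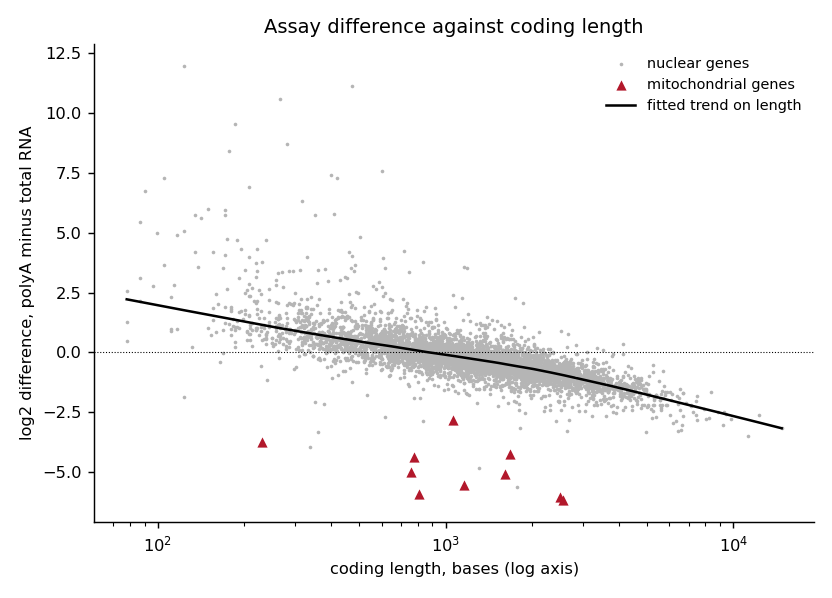
Log2 difference (polyA minus total RNA) of 5153 tested genes against coding length in bases on a log axis, with the fitted trend as a line. Nuclear genes (grey) fall with length; the 10 mitochondrial genes (red) lie below the trend at every length.

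Of 19 tested genes with very long frames 18 were called higher in total RNA, where 10.2% of all tested rows were called in that direction. Their median difference was -2.63 against -0.28 over all genes. TRA1, the scaffold of the SAGA and NuA4 acetyltransferases with a frame of 11235 bases, had 4.53, 5.55 and 7.74 in polyA and 60.7, 73.8 and 84.5 in total RNA. URA2, which starts pyrimidine synthesis, had 36.7, 43.0 and 47.7 in polyA and 308, 342 and 463 in total RNA. FAS1 and ACC1, enzymes of fatty acid synthesis, averaged 177 and 164 in polyA and 1368 and 1050.0 in total RNA. With the length trend removed 1 of these 19 was still called, GLT1, the glutamate synthase, at -1.19 ± 0.05 (limma adjusted p = 0.0440), and the list median was -0.33. The YRF1 family, subtelomeric helicases with near-identical copies between which reads may be split, showed the same: 7 of 8 were called higher in total RNA, with a median of -1.89. With the trend removed 0 were called higher in total RNA and 1, YRF1-4 at 1.87, was called higher in polyA, and the median was 0.00.

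Short frames went the other way. Of 28 genes for small proteins 10 were called higher in polyA and 0 higher in total RNA, beside 2.29% and 10.2% of all tested rows. Their median difference was 1.05, and all 28 had a positive difference. RPS29A, a small-subunit ribosomal protein, had 4958, 5432 and 5808 in polyA and 1192, 1400.4 and 1844 in total RNA. HOR7, a small protein induced by high osmolarity, averaged 1659 in polyA and 454 in total RNA. With the length trend removed 1 of the 28 was called higher in polyA (PMP1) and 1 higher in total RNA (PMP2, at -1.46 ± 0.05), and the median turned to -0.30. PMP1 had no read at its own row in total RNA. Placing it at the lower bound set by its depth could not move the median of 1.05, since that bound lies above it. With the reads of a joined row, described below, its difference was 0.41.

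Ribosomal protein genes made up 45.1% of polyA and 32.5% of total RNA levels. Of 137 genes for cytosolic ribosomal proteins 17 were called higher in polyA and 0 higher in total RNA, with a median of 0.34, where 2.29% and 10.2% of all tested rows were called in those directions. These frames are short, with a median of 432 bases, and with the trend removed the median was -0.19 with 1 gene called each way. Genes for mitochondrial ribosomal proteins, taken by MRP, MRPL or MRPS symbols, are nuclear and polyadenylated. Of these 56 genes 0 were called in either direction, beside the same shares, and the median was 0.15. MRX14, given below, is not in this list by its symbol.

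RPL41A and RPL41B encode the same ribosomal protein and are among the shortest frames compared. Their coding frames, from RefSeq, are shown with the differing base in capitals. RPL41A lies on the minus strand at chrIV:130407-130484 and RPL41B on the minus strand at chrIV:221724-221801.
RPL41A: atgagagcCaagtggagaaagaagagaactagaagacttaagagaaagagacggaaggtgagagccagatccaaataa
RPL41B: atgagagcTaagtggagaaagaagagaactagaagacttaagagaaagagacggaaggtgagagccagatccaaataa
They differ at 1 of 78 bases, and how reads were divided between such near-identical frames is not known. RPL41A had levels of 13567, 16283 and 17940 in polyA and of 5301, 6465 and 8325 in total RNA, a difference of 1.28 ± 0.06. RPL41B had 9538, 10736 and 12653 in polyA and 900, 1937 and 2535 in total RNA, a difference of 2.57 ± 0.11. Both were called higher in polyA (limma adjusted p = 0.00369 and 1.45e-07), and neither with the length trend removed, at -0.94 for RPL41A and 0.35 for RPL41B.

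**Figure D3:**
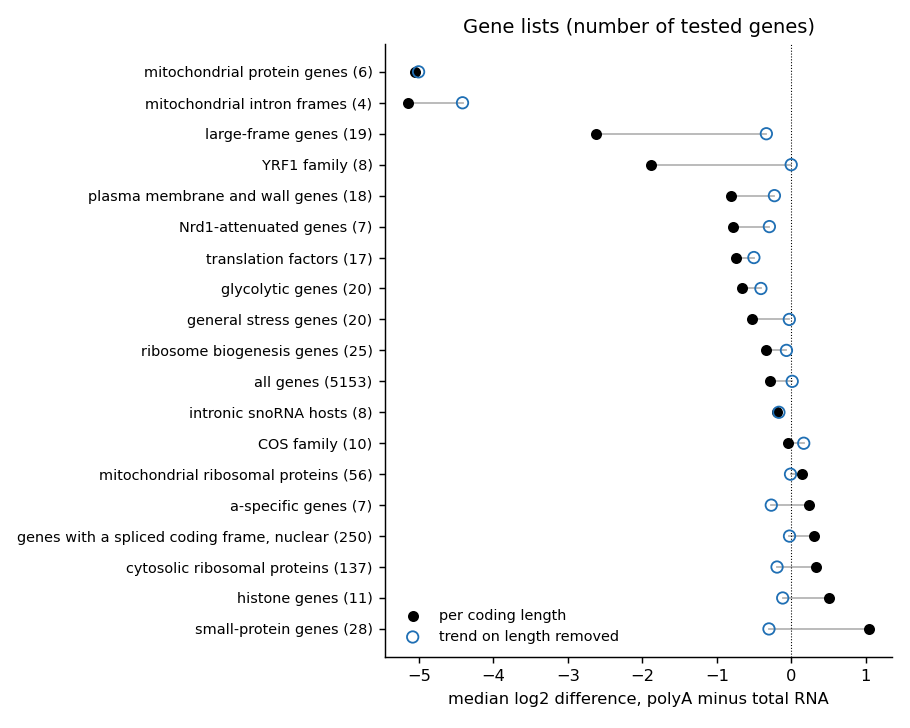
Median log2 difference (polyA minus total RNA) of each gene list, with the number of tested genes in brackets, per coding length (filled) and with the trend on length removed (open). Small-protein genes lie at 1.05 and large-frame genes at -2.63 before the trend is removed, and at -0.30 and -0.33 after it; the mitochondrial lists stay at or below -4.41 either way.

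The gene groups given here had medians from -0.74 (translation factors) to 0.51 (histone genes), between those of large-frame and small-protein genes. Their counts stand beside 2.29% of all tested rows called higher in polyA and 10.2% called higher in total RNA. Of 20 glycolytic genes 1, TPI1, was called higher in polyA, also with the trend removed, and 4 were called higher in total RNA, namely both phosphofructokinase subunits PFK1 and PFK2, the pyruvate kinase CDC19 and the pyruvate decarboxylase PDC1, and 0 of these with the trend removed. The list median was -0.66, and -0.41 with the trend removed against 0.01 over all genes. Translation factors had 1 of 17 called higher in polyA with or without the trend, HYP2, and 5 called higher in total RNA, among them the elongation factor YEF3 at -2.04 ± 0.02 and the poly(A)-binding protein PAB1 at -1.67 ± 0.03. With the trend removed 0 were called higher in total RNA. Ribosome biogenesis genes had 6 of 25 called higher in total RNA, led by the long genes UTP20, RRP5 and UTP10, and 0 with the trend removed. Stress genes had 1 of 20 called higher in total RNA, TSL1 of trehalose synthesis, at -1.51 ± 0.08, which stood at -0.26 and was not called with the trend removed. Histone messages, which are polyadenylated in yeast, had 1 of 11 called higher in polyA, HHF2 at 1.27 ± 0.06, and 0 higher in total RNA; with the trend removed HHF2 stood at 0.41 and was not called.

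Of 8 genes that hold a small nucleolar RNA in an intron 0 were called, a count too small to set apart from the shares over all tested rows. Their differences ran from -0.85 (NOG2) to 0.71 (RPS22B), with TEF4 at -0.66, RPL7A at -0.43, IMD4 at -0.34 and RPL7B at 0.12 between. EFB1, an elongation factor gene, had medians of 2806 in polyA and 2910 in total RNA, and ASC1, of the ribosome, 3461 and 3531 in the same order. Genes with early termination by the Nrd1, Nab3 and Sen1 complex had 2 of 7 called higher in total RNA. These were NRD1 itself, with medians of 57.3 in polyA and 165 in total RNA, and the long gene URA2. IMD2, the IMP dehydrogenase gene controlled in this way, had a difference of -0.16 ± 0.05, and ADE12, of adenine nucleotide synthesis, of 0.03 ± 0.09. HRP1, LEU4 and URA8 stood at -0.78, -1.02 and -0.77 and were not called. With the trend removed 0 of the 7 were called. Nuclear genes with a spliced coding frame had 15 of 250 called higher in polyA and 12 higher in total RNA, beside 2.29% and 10.2% of all tested rows. With the trend removed 2 were called each way.

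A set of nuclear genes stood below the length trend. With the trend removed, 60 genes were called higher in total RNA: the 10 mitochondrial rows, CAN1 and 49 other nuclear genes. SRO9, an RNA-binding protein of translation (YCL037C, chrIII:57374-58678), had levels of 16.4 to 26.8 in polyA and of 509 to 879 in total RNA. Its difference was -4.85 ± 0.08 (limma adjusted p = 1.66e-12), 30.3-fold by means, and -4.53 with the trend removed. DED1, the DEAD-box helicase of translation initiation, had 52.6, 57.6 and 67.5 in polyA and 409, 532 and 614 in total RNA, a difference of -3.15 ± 0.06, and -2.55 with the trend removed. The assays did not overlap for either gene.

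Most genes of this paragraph were named after their values were seen. PUF3, which binds messages for mitochondrial proteins, stood at -3.28 ± 0.08, CCR4, the cytoplasmic deadenylase, at -2.40 ± 0.05, DHH1, a helicase of mRNA decay, at -2.24 ± 0.09, and PUB1, a poly(U)-binding protein, at -1.52 ± 0.04. All 4 were still called with the trend removed, between -2.29 and -1.17. CCW12, a mannoprotein and among the 3 highest genes of total RNA, averaged 12579 in polyA and 26378 in total RNA, a difference of -1.06 ± 0.02 that missed the call and passed it with the trend removed, at -1.71. SED1 and HSP150, of the wall as well, were called either way, at -1.53 and -1.40 before the trend was removed. In all, 6 of 18 genes of the plasma membrane and wall were called higher in total RNA, beside 10.2% of all tested rows. With the trend removed 3 of the 18 were called so, beside 1.16%. MET6 and MET13, of methionine synthesis, were called at -2.40 ± 0.04 and -2.39 ± 0.06, RSP5, the ubiquitin ligase, at -2.87 ± 0.05, and CHC1, the clathrin heavy chain, at -3.35 ± 0.06. Their counts were 63 or more reads per total RNA library in each of the 4.

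**Figure D4:**
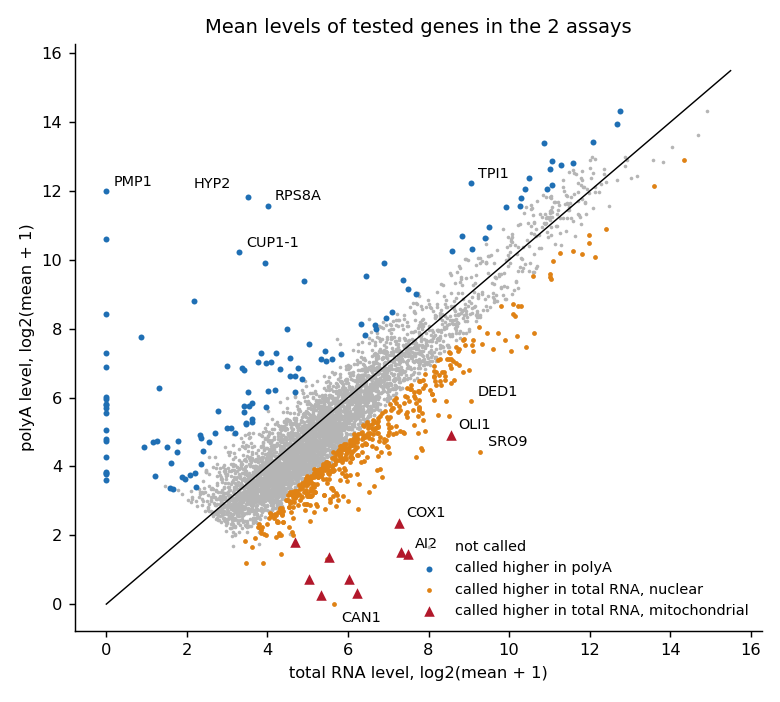
Mean levels of 5153 tested genes, as log2(mean + 1), in polyA (vertical) and total RNA (horizontal), with the line of equality. Called genes are coloured by direction; mitochondrial genes (red) lie far below the line, and a column of genes near 0 in total RNA, such as PMP1, lies above it.

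Many genes called higher in polyA are named in a second kind of row in total RNA. The total RNA tables hold 163 rows whose name joins several neighbouring frames, with 4382 to 5166 reads per library. Of 158 tested frames named in such a row, 46 (29.1%) were called higher in polyA, beside 2.29% of all tested rows. They are 46 of the 118 genes called in that direction. HYP2, the translation factor eIF5A (YEL034W, chrV:85676-86149), had 3395, 3525 and 4054 in polyA, and 18 reads at its own row in 1 total RNA library and 0 in the other 9. A row that joins HYP2 with MTC7, which begins 29 bases after it on the same strand, held 8597 reads. Counted for HYP2, they put its total RNA level at 5033, 5254 and 5870.1, and the difference at -0.47 with no call. RPS8A, a ribosomal protein, had 2816, 3063 and 3172 in polyA and 13.6, 14.9 and 18.2 at its own row in total RNA. With the 6960 reads of its joined row, total RNA stood at 3099, 3358 and 3750.

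PMP1, a small regulator of the plasma membrane proton pump with a frame of 123 bases, had 3725, 3905 and 5073 in polyA and no read at its own row in total RNA. Against a floor of 3 reads over the 10 libraries it was at least 565-fold higher in polyA. The row that joins it with its neighbour YCR024C-B, 79 bases away, held 1367 reads, and with these its difference was 0.41 and was not called. NHP6A, a high-mobility-group chromatin protein, had 515 such reads, HOT13, of mitochondrial intermembrane zinc handling, had 101, and MEO1 210. With these reads added none of the 3 was called, at 0.90 ± 0.05, 0.65 ± 0.30 and 1.93 ± 0.76 in the same order. MEO1 then ranged from 0 to 593 in total RNA. CCW22, with 34 such reads, stayed called higher in polyA, at 5.80 ± 1.07 without them and 3.90 ± 0.64 with them (limma adjusted p = 0.00423), but was not called with the length trend removed. At its own row in total RNA, CCW22 stood at 0 in the strains with 72, 147, 156, 224 and 237 repeats. In the rest it stood at 116 to 220, against 596 to 923 in polyA over all strains. The difference of 5.80 averages over both kinds of library. For all 46 frames together, adding the reads of the joined row in full to each frame left 4 called higher in polyA, 34 not called and 8 called higher in total RNA. The reads cannot be divided between the frames of a joined row, so the last count includes frames given a neighbour's reads, such as MTC7 at -3.66.

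**Figure D5:**
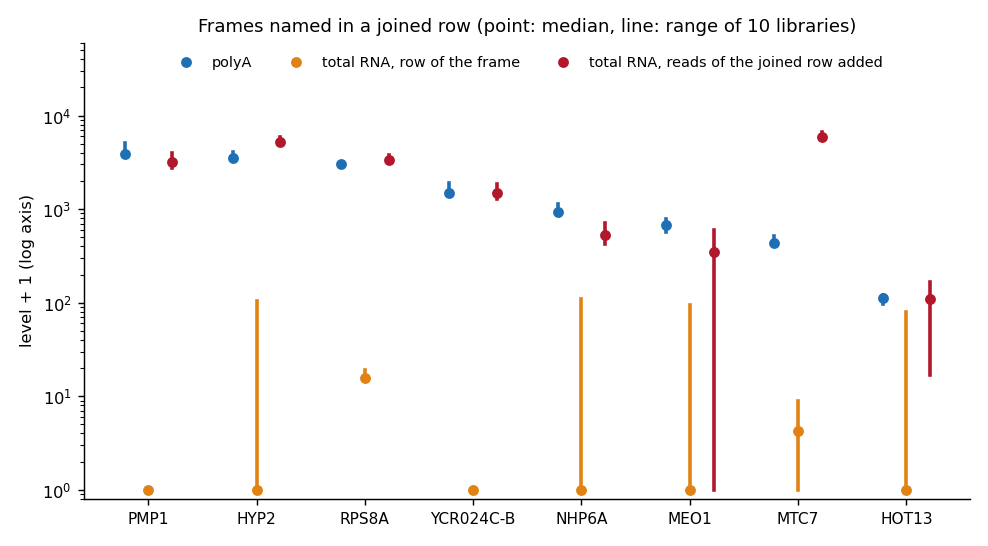
Levels + 1 on a log axis of 8 frames named in a joined row, with the median and range over 10 libraries in polyA (blue), in total RNA at the row of the frame (orange) and in total RNA with the reads of the joined row added in full (red). With the added reads PMP1, RPS8A and YCR024C-B differ from polyA by 0.41, -0.06 and 0.15 log2 units, and MTC7 lies above polyA.

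Other genes were higher in polyA with no joined row. TPI1, the triosephosphate isomerase of glycolysis, had 4480, 4782 and 5174 in polyA and 179, 492 and 1059 in total RNA, a difference of 3.37 ± 0.22 against a median of -0.66 for the glycolytic genes. The total RNA tables hold 2022 further reads at a cryptic transcript named for the TPI1 locus, against 1346 at the gene. CUP1-1 and CUP1-2, tandem copies of the copper metallothionein with 0 of 186 coding bases different, had values in each polyA library that round to the same whole number, with a median of 1143 each. In total RNA CUP1-2 had 48 to 105 reads per library, and CUP1-1 had 6 reads in 1 library and 0 in the other 9. CUP1-1 was called higher in polyA, while CUP1-2 differed by 0.21 ± 0.06 and was not called. Summed over both copies, the levels were 2002, 2287 and 3328 in polyA and 721, 996 and 1636 in total RNA; such polyA values may count the same molecules at each copy. MRX14, a protein of the mitochondrial ribosome, had 107, 120 and 136 in polyA and 7 reads in 1 total RNA library. MOR1, given here by its symbol alone, had a median of 213 in polyA and 1 read over the 10 total RNA libraries, a ratio of 291 with that read at its mean worth over the libraries and a 95% exact Poisson interval of 52.2 to 11479.

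By a fixed pair of levels, at least 10 in all libraries of 1 assay and below 1 in all of the other, 14 frames were high in polyA only and 1, CAN1, in total RNA only. All 14 are under 300 bases, from 87 to 267. At such lengths a single read is worth a level above 1, so the rule admits only frames with 0 reads in total RNA. The 0 reads of all 14 at their own row in every total RNA library therefore follow from the rule and are not a separate result about these 14 frames. Of these 6 are named in a joined row that holds reads, and 12 have no symbol. The 2 with a symbol are PMP1 and MIN3, which had 17.9, 45.2 and 87.1 in polyA. Depth bounds what these zeros show. At the 87 bases of MIN3 a single read is worth a level of 33.9, and MIN3 was at least 4.49-fold higher in polyA against the floor of 3 reads over the 10 libraries. YDR034C-A was at least 68.4-fold higher and YER138W-A at least 18.5-fold, and neither is named in a joined row. Intervals and floors cover counting error only.

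The gap between the assays was not seen to follow the number of rDNA repeats. In a limma fit of the per-strain differences on repeat number, 0 of 5153 genes were called (0%), the lowest adjusted p was 0.283, for RUB1, a ubiquitin-like protein, and 249 genes had an unadjusted p under 0.05. Among the 10 mitochondrial rows, all adjusted p were 0.994. Each strain has 1 library per assay, so these slopes rest on 10 points.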

How the data were processed

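The authors deposited polyA values as TPM, and total RNA values as a signal per feature: read counts divided by a library's size factor, as the values show, since 100% of them lie within 0.001 of a whole multiple of the library's smallest value. The tools named in the submitters' processing notes are Salmon 0.8.1, DESeq2 and bcl2fastq, with the sacCer3 build, and no source used here says which of them made which table. The reads recovered in this way served only for depths, floors and joined rows. Symbols, coordinates and coding lengths come from the RefSeq S288C annotation, matched by systematic name; the deposited tables hold no coordinates.

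Levels were tested with limma 3.58.1 (R 4.3.3), treat against 2-fold with trend and robust moderation on log2(level + 1), with strain as a block, since both libraries of a pair come from the same strain; the fit was tested on simulated data. The mitochondrial share was tested by exact sign flips (Python 3.11.15, scipy 1.17.1). All p-values measure the spread between strains with 1 library per assay.

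Members and gene lists were chosen with earlier results of these data known. The rule for named genes took all mitochondrial protein genes and intron frames, snoRNA hosts and Nrd1-attenuated genes, the 12 largest differences per direction among genes with a symbol, genes high in 1 assay only, the 3 highest genes of each assay and up to 3 called members of each other list. Some that it took from the other lists are given only within their list's counts. Other genes, further members of a list among them, were named after their values were seen. Coding length leaves out UTRs. Alternatives covered the pseudocount, filter, length correction, scaling, moderation, block, joined rows and leaving out each strain.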

Additional observations from a re-analysis of the deposited data

Results flagged for a closer look

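A sample far from the other 9 was found in 8 of 123 per-strain differences and list medians, where chance flags about 1 in 20; these items share libraries, and several rest on 0 reads in total RNA. Per-strain differences are log2(level + 1) in polyA minus total RNA. HYP2 stood at 5.11 in the strain with 84 repeats, where 18 reads sat at its own row, next to 11.7 in the nearest other strain. CUP1-1 stood at 3.49 in the strain with 208 repeats, next to 10.0, MOR1 at 4.52 in that with 156, next to 7.53, MRX14 at 0.77 in that with 197, next to 6.75, and CMC4 at 0.94 in that with 84, next to 4.09. Each of these 5 genes had reads at its row in 1 total RNA library alone. RPS8A stood at 7.20 and PMP1 at 12.3 in the strain with 208 repeats, next to 7.50 and 12.1. The median over translation factors was -0.98 in the strain with 72 repeats, next to -0.81.

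Signal in data outside the comparison: rows of total RNA that the polyA files do not list, the rDNA left out, held a median of 19.0% of the reads outside the rDNA.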

How the results depend on the processing

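Genes called higher in polyA numbered 118, and 725 with no division by length, 54 with the length trend removed, 214 with differences centred on the median, 957 with limma's test against no difference and 385 with that test and a 2-fold minimum. Those called higher in total RNA numbered 525, and under the same settings 1696, 60, 252, 2550 and 874, with 204 at an effective length, 150 bases shorter. Without each strain in turn the counts were 107 to 116 and 500 to 516. The fit with no replicate block, ignoring the pairing by strain, called 116 and 510; of 99 named genes that were tested it changed 1 call. The mean log2 ratio of mitochondrial shares lay between -6.92 and -4.72 in every setting run, with strains left out at -4.95 to -4.72, past its test each time. Frames high in polyA only numbered 9 at levels of 20 and 2, 8 with the reads of joined rows added, and 14 to 18 without each strain; genes high in total RNA only numbered 2 at levels of 20 and 2, and 1 to 4 without each strain. Slopes on repeat number called 0 genes in every setting. With the reads of joined rows added, an alternative chosen after seeing the data, HYP2 turned to -0.47, RPS8A to -0.064 and MTC7 to -3.66. With the length trend removed FKS1 turned to 0.31, STE6 to 0.032 and RPL41A to -0.94. The causes were not tested, other than the reads each setting moves.

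The number of reads in the shared rows limits total RNA: 80 tested rows had fewer than 10 reads over the 10 libraries, and 216 kept rows had none. The levels are shares, so a change in the sum of all messages cannot be seen, and coding length stands in for the unknown length of the counted rows.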

Other observations

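Total RNA also held rows without a match in polyA. Some of them, such as the joined rows, carry messages that polyA lists under single names. SCR1, the RNA of the signal recognition particle, took a median of 2.53% of the reads outside the rDNA (2.33% to 2.86% over the 10 libraries). Rows of small nuclear and nucleolar RNAs, with RPR1 and NME1, the RNAs of RNase P and RNase MRP, took 3.27% (2.88% to 3.75%). Cryptic, unstable and antisense transcripts took 1.93% (1.80% to 1.99%) over 7418 rows, and rows of mitochondrial rRNA 0.764% (0.570% to 0.869%). Joined rows took 1.10% (1.06% to 1.16%). The largest part, 9.42% (8.76% to 10.0%), lay in 4651 other rows outside these classes. Some rows carry the same reads under a pair of names, such as those of the mitochondrial rRNAs, so these shares may count a read more than once.

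Across 5143 tested nuclear genes with the length trend removed, the difference was related to GC content of the coding frame with Spearman's rho of -0.31 and to mean level with rho of -0.36, given as descriptions over genes that share their libraries. Before the trend was removed these were 0.02 and 0.02.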
